A study of Canis lupus familiaris with 6 samples.

Results

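The 10 genes described here encode transcription factors that pattern the limbs and the skeleton: the homeobox factors MSX1, MSX2, DLX3, DLX5 and PRRX1, the basic helix-loop-helix factor TWIST2, and the T-box factors TBX2, TBX3, TBX15 and TBX18. They were taken by name, and every probe set of the array annotated with one of these symbols alone was used, which gave 15 probe sets for 10 genes out of 42924 probe sets in all. The values come from 6 primary lines of osteosarcoma, a malignant tumour of bone, from dogs, with 1 Affymetrix array per line. UWKOS1, UWKOS3 and UWKOS7 formed tumours when transplanted into mice (tumorigenic, n = 3), and UWKOS2, UWKOS6 and UWKOS8 formed none (non-tumorigenic, n = 3). RNA came from cultures of the lines, all handled alike, and not from the transplants; all 6 were grown in the same medium with 10% serum, and the study had no normal or reference cells. Each line is a single culture arrayed once, so the p-values set the difference between the groups against the spread between lines within a group. The donor animals are not described in the sources used here.

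In the embryo, patterning factors of this kind tell mesenchymal cells where they are and what to become. PRRX1 marks the early limb bud mesenchyme and the progenitors of its skeleton. MSX and DLX factors respond to BMP signals and act on opposite sides of osteoblast differentiation, MSX2 mostly holding it back and DLX5 promoting it. TWIST2 restrains the osteoblast factor RUNX2, TBX2 and TBX3 are transcriptional repressors of the limb, heart and mammary gland, and TBX15 and TBX18 shape the shoulder girdle and the vertebral column. Osteosarcoma cells resemble early osteoblasts and mesenchymal progenitors, in which many of these genes are active.

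All values are deposited log2 values, so that a step of 1 is a doubling, and differences are tumorigenic minus non-tumorigenic. Array medians lay between 6.03 and 6.05. Probe sets with a mean of at least 6.07, the midpoint of the 42924 probe sets, were tested. Of the 15 probe sets 7 reached it, those of MSX1, DLX5, TBX3, 1 of MSX2 and all 3 of PRRX1. The other 8 lay under it, so 5 genes (DLX3, TWIST2, TBX2, TBX15 and TBX18) are given as values that are not known to lie above background, with the fit over all probe sets. In the whole table limma called 12.0% of 21462 tested probe sets at an adjusted p under 0.05, 1563 higher (7.28%) and 1017 lower (4.74%). After centring on the hybridization controls the split was 2551 higher and 761 lower, and the median difference of all tested probe sets moved from 0.03 to 0.20. The ratio of 3' to 5' control signals, a measure of RNA integrity, was higher in UWKOS6 and UWKOS8 (means of 4 control pairs 1.55 and 1.48 on the log2 scale) than in the other 4 lines (0.53 to 0.81). The GAPDH control ratio used below as a covariate is 1 of these pairs. It read 1.98 in UWKOS8, 1.21 in UWKOS6 and 0.86 to 1.07 in the other 4 lines, so it sets UWKOS6 apart less than the mean does. Among markers of the labelled cell type, COL1A1, COL1A2 and SPARC had values above 12 in every line, RUNX2 ranged from 5.84 to 6.52, and ALPL and IBSP lay below 6.07 in every line. The osteoblast marker SPP1 reached 9.76 in UWKOS1 and at most 3.30 elsewhere. The mean of 5 haematopoietic and macrophage markers ranged from 5.45 to 5.83 over the 6 lines. Among them PTPRC, the pan-leukocyte marker, lay between 4.86 and 5.17, and CD68 read 7.22 to 7.68 in 4 lines and lay under the filter in UWKOS1 and in UWKOS3, where it was lowest at 5.71.

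None of the 7 tested probe sets passed (limma adjusted p 0.113 to 0.997), against the 12.0% of all tested probe sets that did, and 2 of the 7, both of PRRX1, had an unadjusted p under 0.05, as did 31.9% of all tested probe sets. With no filter 0 of 15 passed (lowest limma adjusted p 0.107), where 5.05% of all probe sets did, 3.06% higher and 1.99% lower. By mean of the leading probe set, 3 of the 10 genes were higher in the tumorigenic lines and 7 lower. The 7 include MSX1, at -0.0041, and TBX18, whose probe sets disagreed, and 5 of the 10 genes lay under the filter. The count therefore gives no direction for the set. The median difference was -0.0041 over the 5 tested genes, beside 0.03 over all 9145 genes tested. The tumorigenic and non-tumorigenic values of 3 tested probe sets did not overlap, all of PRRX1 and all lower; among all tested probe sets 38.2% did not overlap, 16.9% lower and 21.3% higher. Over all 15 probe sets 7 did not overlap, 5 lower and 2 higher, beside 29.2% of all 42924, 15.3% lower and 13.9% higher. Some of these 7 belong to the same gene. By leading probe set, groups did not overlap in 4 of the 10 genes, 3 lower and 1 higher. Among the 5 tested genes they did not overlap in 1, beside 38.4% of all genes tested.

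**Figure D1:**
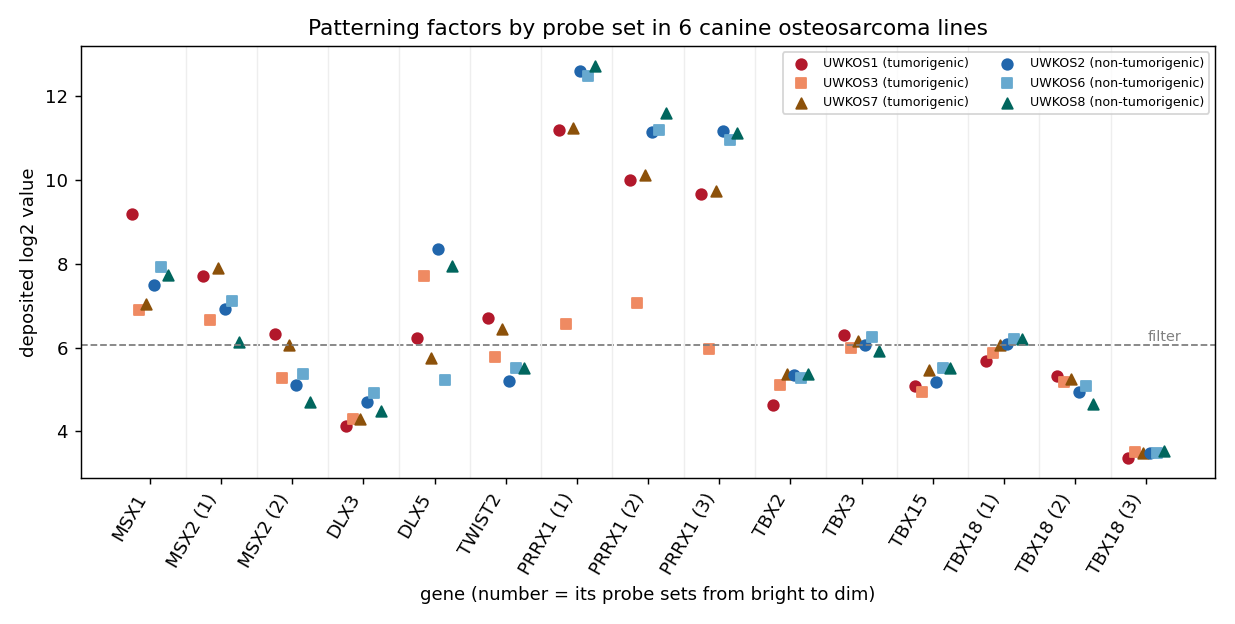
Deposited log2 values (vertical axis) of the 15 probe sets of the 10 patterning factors (horizontal axis, probe sets of 1 gene numbered from bright to dim), 1 point per line; the dashed line is the filter value of 6.07. The 3 PRRX1 probe sets show UWKOS3 far below the other lines, DLX5 splits the lines without regard to the groups, and the T-box genes cluster tightly at or under the filter.

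PRRX1, the limb mesenchyme homeobox gene, varied most. On its leading probe set, numbered 1, the value was 11.18 in UWKOS1, 6.56 in UWKOS3 and 11.24 in UWKOS7, and 12.59 in UWKOS2, 12.47 in UWKOS6 and 12.72 in UWKOS8. The non-tumorigenic lines were thus nearly level, UWKOS1 and UWKOS7 lay together a step below them, and UWKOS3 lay 4.61 below the next lowest line. The group means were 9.66 ± 2.68 (SD, n = 3) and 12.59 ± 0.13 (SD, n = 3), a difference of -2.93 (SE 1.22, 95% interval -5.87 to 0.0064, limma adjusted p = 0.157). The SD of the tumorigenic lines was thus many times that of the others, with UWKOS3 apart from UWKOS1 and UWKOS7.

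The other probe sets of PRRX1 gave the same order of groups. Probe set 2 read 9.98, 7.06 and 10.12 in UWKOS1, UWKOS3 and UWKOS7 against 11.13, 11.17 and 11.59 in UWKOS2, UWKOS6 and UWKOS8. Probe set 3 read 9.65, 5.96 and 9.72 against 11.15, 10.95 and 11.12 in the same order of lines. Its value in UWKOS3 lay under the filter value and is not known to lie above background. The leading probe set, at 6.56 in UWKOS3, lay little above the filter value, so the sizes of these differences carry that limit. For probe sets 2 and 3 the differences were -2.24 (limma adjusted p = 0.113) and -2.63 (limma adjusted p = 0.125). Over the 6 lines the 3 probe sets correlated with one another at r of 0.993 to 0.998, as a description. They read the same RNA of 1 gene on the same arrays and are not independent measurements. For each of the 3, an exact two-sided permutation test over lines gave p = 0.1, the smallest that 3 against 3 lines allow. Every probe set whose groups do not overlap gives this value, and 38.2% of all tested probe sets are of that kind. The test therefore adds nothing to the lack of overlap.

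With UWKOS3 left out, the tumorigenic group held UWKOS1 and UWKOS7 alone (n = 2), against 3 non-tumorigenic lines. These 2 lines stood in a narrow band, on which the small SE in part rests, and 2 of the 3 PRRX1 probe sets passed. The leading one differed by -1.38 (SE 0.18, limma adjusted p = 0.041), which is 2.61-fold lower, and probe set 3 by -1.39 (limma adjusted p = 0.041). For probe set 2 the difference was -1.25, short of the threshold (limma adjusted p = 0.051). In that fit 3.01% of tested probe sets passed in either direction and 1.48% were lower, and by leading probe set 3.89% of genes passed, 1.84% lower. PRRX1 kept its direction in all 15 alternative settings, with differences of the leading probe set between -3.72 and -1.38, and passed in the fit without UWKOS3 alone.

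**Figure D2:**
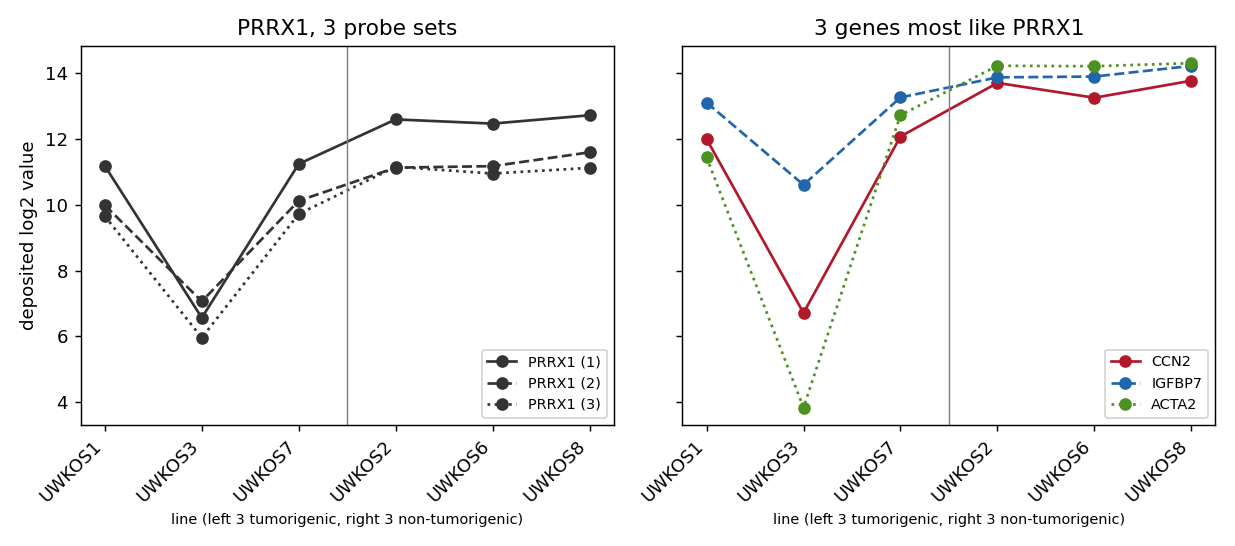
Deposited log2 values (vertical axis) by line (horizontal axis) for the 3 PRRX1 probe sets on the left and for CCN2, IGFBP7 and ACTA2, the 3 genes most like PRRX1, on the right; the vertical rule separates the 3 tumorigenic from the 3 non-tumorigenic lines. All 6 traces are lowest in UWKOS3 and higher in every non-tumorigenic line than in any tumorigenic one.

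A cut of at least 4 below every other line was chosen after the leading PRRX1 value in UWKOS3 was seen, so the counts are a description. Of 21462 tested probe sets 18 (0.0839%) met the cut in UWKOS3, the leading one of PRRX1 among them. In UWKOS1, the next highest count, 12 met it. PRRX1 probe sets 2 and 3 lay 2.92 and 3.69 below the next lowest line in UWKOS3 and did not meet it. Besides PRRX1 the named genes among the 18, read off after their values were seen, were ACTA2, KHDRBS3, CCN2, FHL1, STAMBPL1 and IGFBP2. By the rule for likeness, the 3 of 9144 other genes whose pattern over the 6 lines was closest to PRRX1 were CCN2 (r = 0.999), IGFBP7 (r = 0.997) and ACTA2 (r = 0.995). CCN2 is a matricellular growth factor, IGFBP7 a secreted binding protein and ACTA2 the smooth muscle actin. ACTA2 read 11.44, 3.83 and 12.72 in UWKOS1, UWKOS3 and UWKOS7 and 14.22, 14.21 and 14.30 in UWKOS2, UWKOS6 and UWKOS8. Without the lines farthest from the median, UWKOS3 and UWKOS8, r over the other 4 was 0.989, 0.988 and 0.931. With 6 points 61 genes had an r over 0.95, so likeness of this degree is a description and no more.

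Of 4 smooth muscle markers read beside PRRX1, 3 lay above the filter and 0 of the 3 passed, where 12.1% of all genes did. The mean level of the 4 markers (ACTA2, TAGLN, CNN1 and MYH11) ranged from 6.25 to 10.99 in the tumorigenic lines and from 11.04 to 11.19 in the others. TAGLN was lowest in UWKOS3, at 9.51, as ACTA2 was. CNN1 did not share the order of groups, with 11.94 in UWKOS7, 6.68 in UWKOS1, 6.10 in UWKOS3 and 9.93 to 10.62 in the others. MYH11, the defining myosin of mature smooth muscle, lay between 5.29 and 5.75 in all 6 lines. The mean of 6 mesenchymal markers ranged from 9.43 to 10.41 against 11.11 to 11.39, and 0 of the 5 above the filter passed. These markers differed among themselves. VIM lay between 14.42 and 14.60 in all 6 lines, and the groups overlapped for THY1 and DCN. FAP and LUM were lower in each tumorigenic line but lowest in UWKOS7, at 4.54 and 11.20, against 8.61 and 12.90 in UWKOS3. PDGFRB, under the filter, was lowest in UWKOS3, at 5.65. The mean of 4 epithelial markers, all under the filter, ranged from 4.07 to 6.41 in the tumorigenic and from 3.93 to 4.13 in the non-tumorigenic lines. Among them KRT8 read 6.49 in UWKOS1 and 6.64 in UWKOS3 and at most 3.04 elsewhere, EPCAM read 7.65 in UWKOS1 and lay under the filter in UWKOS3 and the other 4 lines, and CDH1 lay between 3.95 and 4.26 in all 6 lines. The part of these in the PRRX1 values was not tested, and in bulk RNA fewer cells with PRRX1 and less PRRX1 per cell cannot be told apart.

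The paralogue PRRX2 was lower by mean as well. It read 9.61, 8.94 and 9.34 in UWKOS1, UWKOS3 and UWKOS7 and 9.76, 10.58 and 11.30 in UWKOS2, UWKOS6 and UWKOS8. The groups did not overlap, but the gap between UWKOS1 and UWKOS2 was small, and the difference of -1.25 did not pass (limma adjusted p = 0.092). In contrast to PRRX1, no line stood far below the rest. In the RefSeq gene order of assembly UU_Cfam_GSD_1.0 the coding gene next to PRRX1 on one side is GORAB, a Golgi protein. GORAB read 9.71, 8.16 and 9.75 in the tumorigenic lines UWKOS1, UWKOS3 and UWKOS7 and 10.25, 10.45 and 10.39 in UWKOS2, UWKOS6 and UWKOS8, the same order of groups with the same lowest line. Of the 10 nearest genes above the filter, 5 on each side, GORAB was the only one lowest in UWKOS3, 1.55 below the next line.

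**Figure D3:**
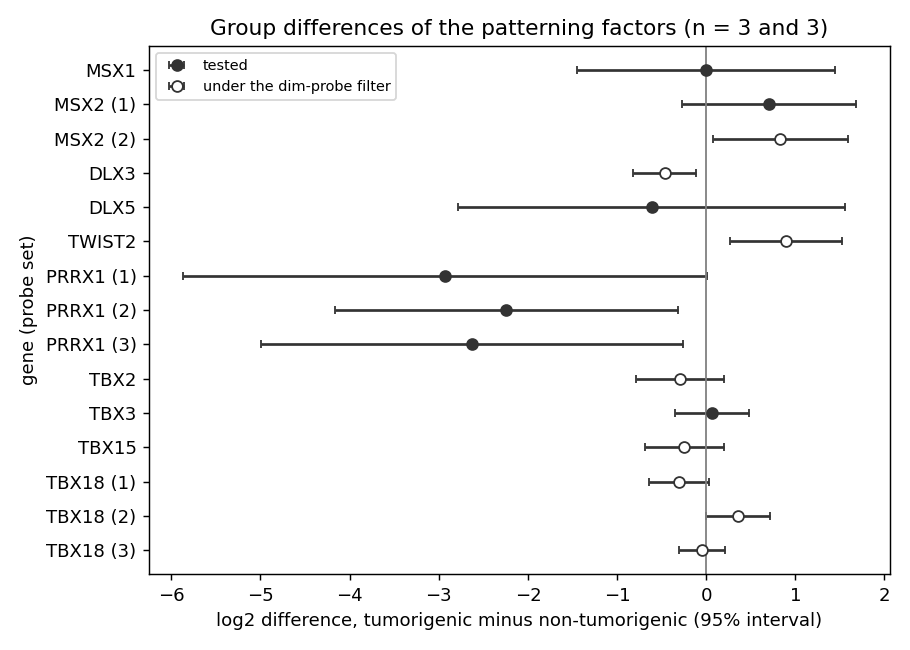
Log2 difference, tumorigenic minus non-tumorigenic (horizontal axis), with its 95% interval for each of the 15 probe sets (vertical axis); filled points were tested and open points lay under the filter. The PRRX1 intervals reach farthest below 0, and that of TBX3 spans -0.35 to 0.48.

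MSX1 and MSX2, the muscle segment homeobox pair that BMP signals induce, did not separate the groups. MSX1 read 9.18 in UWKOS1, 6.90 in UWKOS3 and 7.04 in UWKOS7, against 7.49, 7.92 and 7.72 in UWKOS2, UWKOS6 and UWKOS8. UWKOS1 was the highest line by 1.26, while UWKOS3 and UWKOS7 were the 2 lowest, so the tumorigenic lines enclosed the others. The group means were 7.71 ± 1.28 and 7.71 ± 0.21 (SD, n = 3 each), a difference of -0.0041 (95% interval -1.45 to 1.45, limma adjusted p = 0.997). Leaving out UWKOS1 gave -0.74 (limma adjusted p = 0.088), and leaving out UWKOS3 gave 0.40, so the sign of this difference is set by single lines. It was also positive, at 0.17, after centring on the hybridization controls.

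The 3 genes most like MSX1 over the 6 lines were the phosphatase CTDSP1 (r = 0.997), the death effector domain protein DEDD (r = 0.996) and the metalloproteinase MMP19 (r = 0.986), and 23 genes had an r over 0.95. Without UWKOS1 and UWKOS3, the lines farthest from the median, r over 4 lines was 0.978, 0.980 and 0.998. CTDSP1 ranged from 7.25 in UWKOS3 to 8.27 in UWKOS1. The coding gene next to MSX1, STX18, a syntaxin of the endoplasmic reticulum, was likewise highest in UWKOS1, at 7.14 against 6.24 to 6.39 in the other lines. Of the 10 nearest genes above the filter 3 were highest in UWKOS1. They exceeded the next line by 0.75 (STX18), 0.35 (ZNF518B) and 0.04 (TMEM128). The share of all tested genes highest in UWKOS1 was not counted, so this is a description.

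MSX2 was highest in UWKOS7 and UWKOS1. Its leading probe set read 7.70, 6.66 and 7.91 in UWKOS1, UWKOS3 and UWKOS7 and 6.92, 7.10 and 6.12 in UWKOS2, UWKOS6 and UWKOS8. UWKOS3 fell among the non-tumorigenic lines, so the groups overlapped, and the difference was 0.70 (95% interval -0.27 to 1.68, limma adjusted p = 0.284). The dimmer probe set, under the filter, gave the same sign, with a difference of 0.83 and r = 0.94 between the pair. Both kept a positive sign in all 15 alternatives. The leading difference was 0.41 without UWKOS8, 0.46 without UWKOS7, 1.08 without UWKOS3 and 0.39 with the GAPDH control ratio as a covariate. UWKOS8 was lowest on both.

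DLX5, which promotes osteoblast differentiation, was the most variable gene after PRRX1. It read 8.34 in UWKOS2, 7.94 in UWKOS8 and 7.70 in UWKOS3, and then 6.24 in UWKOS1, 5.75 in UWKOS7 and 5.23 in UWKOS6. The 6 lines thus formed a high and a low set of 3, with a gap of 1.46 between them, and each set mixed both groups. In the low set UWKOS7 and UWKOS6 lay under the filter value, where values are not known to lie above background. The size of the gap and of the span carries that limit. The span of 3.11 exceeded that of 95.1% of tested probe sets, while the group difference was -0.61 (95% interval -2.78 to 1.56, limma adjusted p = 0.680). Without UWKOS6 the difference was -1.58 (limma adjusted p = 0.209), without UWKOS2 it was -0.027, and with array weights it was 0.048. With a single array for each line, neighbours in this order cannot be separated by a test.

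DLX6, the neighbour of DLX5 in the same gene pair, was too dim for its order of lines to be set against that of DLX5. DLX6 lay under the filter, with 6.27 in UWKOS3, 5.27 in UWKOS1 and 4.76 to 4.87 in the other 4 lines. UWKOS2 and UWKOS8, the highest lines for DLX5, were among these 4, whose values are not known to lie above background and give no order. UWKOS3, in the high set for DLX5, was the highest line for DLX6. The 3 genes most like DLX5 were the adhesion receptor ADGRE5 (r = 0.98), the small GTPase RAB12 (r = 0.97) and the receptor kinase MERTK (r = 0.96), out of 3 with an r over 0.95. RAB12 varied only from 10.81 to 10.94, whereas MERTK read 7.70, 7.48 and 7.12 in UWKOS2, UWKOS3 and UWKOS8 and 6.15 to 6.43 in the other lines. Without UWKOS6 and UWKOS2 r over 4 lines was 0.95, 0.97 and 0.91.

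DLX3, known from the placenta, skin and bone, was dim in every line. It read 4.12, 4.29 and 4.29 in UWKOS1, UWKOS3 and UWKOS7 and 4.70, 4.91 and 4.49 in UWKOS2, UWKOS6 and UWKOS8. The groups did not overlap; the difference was -0.47 and missed the threshold in the fit over all probe sets (limma adjusted p = 0.127), and values this far under 6.07 are not known to lie above background. Its neighbour DLX4 lay between 5.79 and 6.88 with overlapping groups.

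TWIST2, a brake on osteoblast maturation, was higher in each tumorigenic line. It read 6.70 in UWKOS1, 5.77 in UWKOS3 and 6.44 in UWKOS7, against 5.20, 5.51 and 5.52 in UWKOS2, UWKOS6 and UWKOS8. The groups were 0.25 apart, and UWKOS1 and UWKOS7 were the lines that reached the filter value. The difference was 0.89 (SE 0.26, 95% interval 0.27 to 1.52), or 1.86-fold, short of the threshold in the fit over all probe sets (limma adjusted p = 0.107). It stayed positive in all 15 alternatives, from 0.70 to 1.16. The paralogue TWIST1 was tested and its groups overlapped: it read 8.53, 7.55 and 7.05 in UWKOS1, UWKOS3 and UWKOS7 and 7.84, 8.88 and 8.33 in UWKOS2, UWKOS6 and UWKOS8, a difference of -0.64 (limma adjusted p = 0.360).

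The T-box genes varied least. TBX3, the repressor mutated in ulnar-mammary syndrome, read 6.29, 5.98 and 6.15 in UWKOS1, UWKOS3 and UWKOS7 and 6.05, 6.26 and 5.92 in UWKOS2, UWKOS6 and UWKOS8. Its span of 0.38 was wider than that of only 7.98% of tested probe sets. The difference was 0.07 (limma adjusted p = 0.826), -0.013 after centring on the 75th percentile and -0.022 with the GAPDH control ratio as a covariate, and the 95% interval of -0.35 to 0.48 leaves out a difference of 1 in either direction at this probe set. Its values straddle the filter value, and 3 lines lie on each side.

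TBX2, the close relative of TBX3, lay between 4.62 in UWKOS1 and 5.37 in UWKOS7, below 6.07 in every line. The remaining lines, of both groups, read 5.10 to 5.36, and the difference was -0.29 (95% interval -0.79 to 0.20). It was -0.088 without UWKOS1 and -0.46 without UWKOS7. TBX15 ranged from 4.93 in UWKOS3 to 5.51 in UWKOS8 with overlapping groups and a difference of -0.24, which was -0.13 without UWKOS3 and -0.40 without UWKOS7. With all 6 lines both intervals exclude a difference of 1, with the same limit of dim signal.

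TBX18 had 3 probe sets that disagreed. The leading one read 5.67, 5.88 and 6.07 in UWKOS1, UWKOS3 and UWKOS7 and 6.09, 6.21 and 6.21 in UWKOS2, UWKOS6 and UWKOS8, lower without overlap by a margin of 0.025. Probe set 2 read 5.32, 5.17 and 5.25 against 4.95, 5.08 and 4.64 in the same order, higher without overlap. The pair correlated at r = -0.70 over the 6 lines, and probe set 3 ranged only from 3.36 to 3.54. No direction can therefore be given for TBX18.

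**Figure D4:**
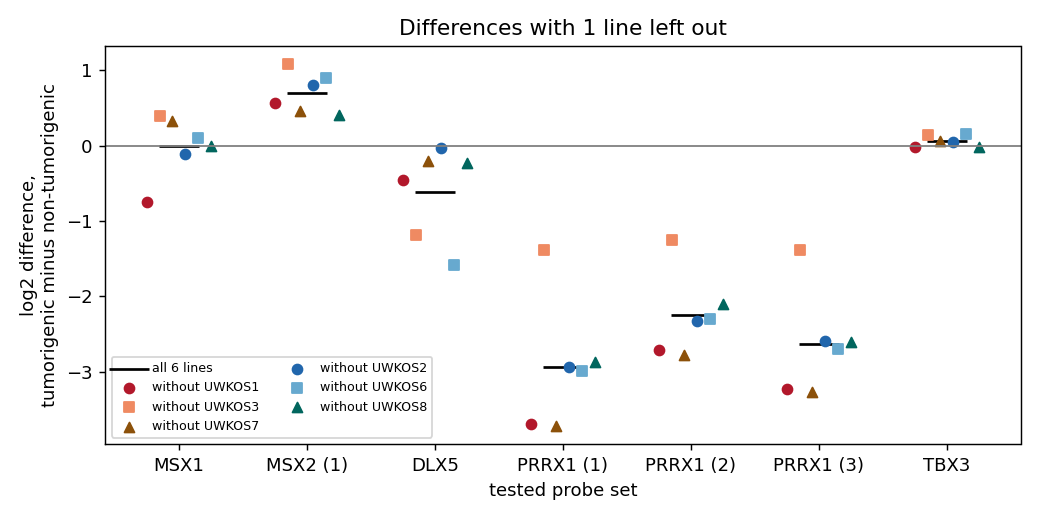
Log2 difference, tumorigenic minus non-tumorigenic (vertical axis), of the 7 tested probe sets (horizontal axis) with all 6 lines (black bar) and with each line left out (points). The PRRX1 differences shrink to between -1.39 and -1.25 without UWKOS3, and those of MSX1 fall on both sides of 0.

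Other genes of the same families and pathways were read from lists, at 1 leading probe set per gene. At this level 12.1% of 9145 genes passed, 7.50% higher and 4.63% lower. Of 20 paralogues of the 10 genes 18 were on the array and 6 lay above the filter, and 0 passed, with a median difference of 0.14; the lowest p-values were those of PRRX2, given above, and of MGA, a T-box partner of MAX (0.41, limma adjusted p = 0.16). Of 60 other limb and axial patterning factors 49 were on the array and 18 lay above the filter. None of the 18 passed, and the median was -0.20. PBX3, a homeobox cofactor, averaged 8.47 in the tumorigenic and 8.05 in the non-tumorigenic lines (0.42, limma adjusted p = 0.096), and MEOX1, a somite homeobox gene, 6.29 to 6.58 against 6.79 to 6.90 (-0.45, limma adjusted p = 0.0996). Groups did not overlap in 3 of the 6 paralogues and 4 of the 18 other factors, beside 38.4% of all genes tested.

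**Figure D5:**
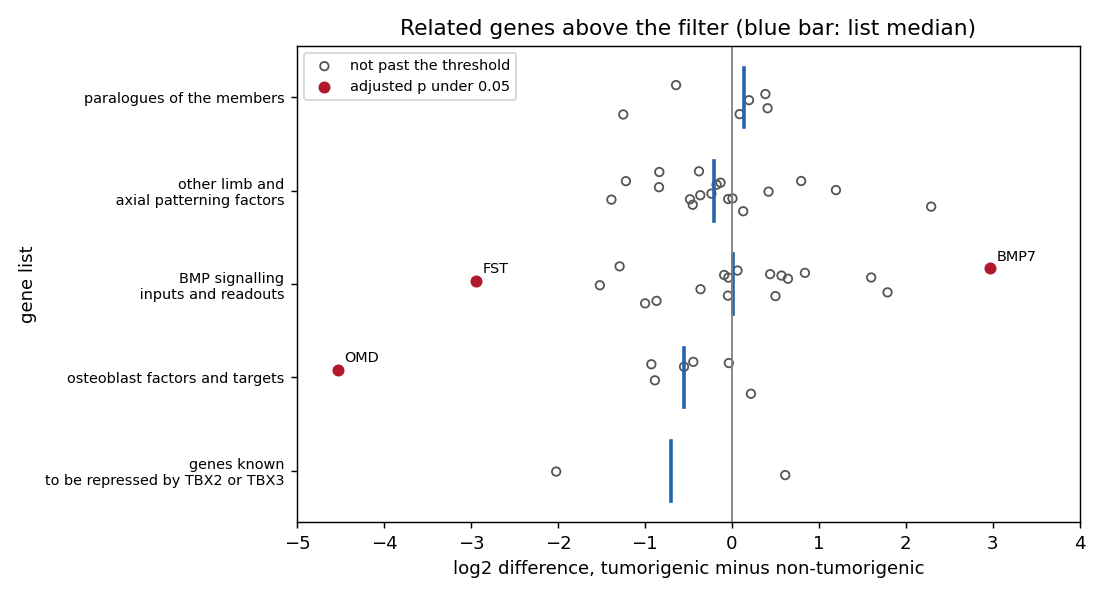
Log2 difference, tumorigenic minus non-tumorigenic (horizontal axis), of each related gene above the filter, by list (vertical axis); red points passed, open points did not, and blue bars are list medians. BMP7 passed on the higher side, and FST and OMD on the lower.

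BMP signals lie upstream of MSX and DLX genes, and their list held members that moved in both directions. Of 25 genes 21 were on the array and 18 above the filter; 1 rose and 1 fell, the other 16 missed the threshold, and the median was 0.01. BMP7, a bone morphogenetic protein, read 10.16, 8.39 and 8.22 in UWKOS1, UWKOS3 and UWKOS7 and 6.36, 5.80 and 5.70 in UWKOS2, UWKOS6 and UWKOS8 (2.97, limma adjusted p = 0.025). Its non-tumorigenic mean of 5.95 lay under the filter value, so BMP7 was tested through the tumorigenic lines, and the size of the difference is set against values not known to lie above background. FST, the secreted BMP and activin inhibitor follistatin, read 10.56, 8.85 and 9.80 against 13.37, 12.82 and 11.87 in the same order of lines (-2.94, limma adjusted p = 0.026). The direct BMP targets ID1 and ID3 missed the threshold (limma adjusted p = 0.949 and 0.146), ID1 averaging 11.45 and 11.39, and ID3 10.79 and 11.79, in the tumorigenic and non-tumorigenic lines. FST missed the threshold without UWKOS2, UWKOS3 or UWKOS6 (limma adjusted p = 0.063, 0.056 and 0.103), and BMP7 without any of these or without UWKOS8 (limma adjusted p = 0.054, 0.0503, 0.1002 and 0.076). Neither passed with the GAPDH control ratio as a covariate, where 0 related genes passed; their differences there were -3.55 for FST and 2.62 for BMP7.

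Among 15 osteoblast factors and targets, 13 were on the array and 7 above the filter; 1 fell, 0 rose, the other 6 missed the threshold, and the median was -0.55. OMD, the matrix protein osteomodulin, read 6.19, 3.22 and 6.42 in UWKOS1, UWKOS3 and UWKOS7 and 9.58, 9.87 and 9.97 in UWKOS2, UWKOS6 and UWKOS8 (-4.53, limma adjusted p = 0.026). OMD was tested through the non-tumorigenic lines, since its tumorigenic mean of 5.28 lay under the filter value and is not known to be above background, and the size of the difference carries that limit. Like PRRX1 it was lowest in UWKOS3, and it still passed without that line; it missed the threshold without UWKOS2, UWKOS6 or UWKOS8 (limma adjusted p = 0.062, 0.101 and 0.077). RUNX2, the osteoblast master factor that TWIST2 restrains, differed by 0.22 (limma adjusted p = 0.54). Of 5 genes that TBX2 or TBX3 are known to repress, 2 lay above the filter and 0 passed. The cell cycle inhibitor CDKN1A read 12.36 in UWKOS1, 13.29 in UWKOS6 and 13.12 in UWKOS8 and 8.28 to 9.06 in the other lines, a difference of -2.02 (limma adjusted p = 0.397), and NDRG1 differed by 0.61 (limma adjusted p = 0.34).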

How the data were processed

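Total RNA (10 µg per line, cells at 70 to 80% confluency) was labelled with biotin and hybridised to Affymetrix canine arrays, per the labels. The deposited log2 values were used as given, with 0 added; the submitters' processing notes name MAS5 alone, and the summary method is not settled, since the columns have nearly equal quantiles and no value below 1.97. No detection calls were used. Of 42924 non-control probe sets 29254 had 1 symbol, of which 27680 were brought up to date by gene identifier with RefSeq (UU_Cfam_GSD_1.0); all 10 genes matched. Groups were compared with limma 3.58.1 in R 4.3.3 (lmFit, eBayes, no covariate), two-sided, with Benjamini-Hochberg adjustment over all tested probe sets and a threshold of 0.05. The fit was tested on simulated data. The brightest probe set led each gene. Genes, lists and tests were chosen with earlier results of these data known. All probe sets of the 10 genes were named; of each list, the passing genes, or the 2 with the lowest p where none passed, and others named for context were chosen after their values were seen. Likeness took the 3 highest r for tested genes spanning at least 2. Alternatives were other filters, normalizations, variance models, a control-ratio covariate, averaged probe sets, and lines left out. Figures used matplotlib 3.10.9.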

Additional observations from a re-analysis of the deposited data

How the results depend on the processing

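Of the 7 tested probe sets of the patterning factors 0 passed in any alternative that kept UWKOS3; with each line left out in turn the count ran from 0 to 2 probe sets, and from 0 to 1 gene, the higher values being PRRX1 without UWKOS3. All tested probe sets passing numbered 2580; the count was 3895 with array weights, 27 with the GAPDH control ratio as a covariate, 9 without both UWKOS6 and UWKOS8, and 52 to 3169 with 1 line left out, lowest without UWKOS6. Related genes passing numbered 3; the count was 1 with the upper-quartile filter, which leaves out BMP7 and OMD, 6 with array weights, 5 with probe sets averaged by gene, 0 with the GAPDH covariate and 0 without both lines, and 0 to 7 with 1 line left out. Signs turned for MSX1 (0.17 centred on the hybridization controls, 0.21 without both UWKOS6 and UWKOS8, -0.74 to 0.40 with 1 line left out), TBX3 (-0.013 centred on the 75th percentile, -0.022 with the GAPDH covariate, -0.014 to 0.16 with 1 line left out), DLX5 (0.048 with array weights) and the dimmest TBX18 probe set (0.12 centred on the hybridization controls). The cause was not tested. No paired analysis was possible because the labels give the lines no numbers that pair them. Without both UWKOS6 and UWKOS8, UWKOS2 stood alone, on the assumption that it varies as the tumorigenic lines do.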
